A study of Mus musculus with 8 samples.

Results

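The interferon response genes described here are 40 mouse genes of the interferon pathway and its induced products, chosen by name, with no threshold on their values in these libraries. They are 40 of the 54837 genes in the deposited count table, where every one of them has a row. RNA sequencing was done on basal cells of the mouse mammary gland that had been sorted into G1, the growth phase of dividing cells before DNA synthesis, and G0, the resting state outside the cycle. There were 4 G1 libraries and 4 G0 libraries, and each of 4 runs gave 1 library of each phase. All the mice were of the strain labelled C57BL/B6 and had received no treatment. Sort markers, animal age and the animals behind each run are unstated in the sources used here. Since no label ties a run to its own animals, p-values below reflect only how much these samples vary, and that variation may be technical. Levels are CPM, the share of a library's counts scaled to a common total and adjusted by the trimmed mean of M-values (TMM), and a level set between genes is CPM per kilobase of exon.

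Interferons are secreted proteins that warn cells of infection. Type I and type III interferons act through receptors, the JAK1 and TYK2 kinases and a complex that includes STAT2 and IRF9, which binds the interferon-stimulated response element (ISRE) in promoters. Type II interferon acts at the gamma-activated sequence (GAS) and through IRF1, and epithelial cells carry the receptors for all types. The induced proteins sense viral nucleic acids, block translation and virus release, and raise peptide supply to MHC class I.

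RefSeq promoter windows on GRCm38.p6, which run from 250 bases before each gene start to 50 bases after it, were found for 30 of the 40 members. The ISRE was searched as GAAA followed, after any 2 bases, by a second GAAA, and the GAS as TTCNNNGAA, where N is any base, on both strands. An ISRE match lay in a window of 14 of these 30 members (46.7%), against 1079 of all 27025 genes with a window (3.99%). A GAS match lay in a window of 7 of the 30 members (23.3%), against 9.55% of all genes. These matches describe letters and are not shown to be bound sites. The stretches below come from members whose values carry the results, are read along the gene's strand, and have the ISRE matches in capitals, on the strand shown or as the reverse complement.

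Ifit1, chr19:34640770-34640828, plus strand: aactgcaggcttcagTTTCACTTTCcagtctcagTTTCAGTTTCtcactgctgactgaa
Ifit3, chr19:34583358-34583431, plus strand: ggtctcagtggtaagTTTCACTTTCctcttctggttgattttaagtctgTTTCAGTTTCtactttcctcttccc
Ifit3b, chr19:34607754-34607827, plus strand: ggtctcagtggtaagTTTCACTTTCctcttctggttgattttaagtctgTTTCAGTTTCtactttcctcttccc
Isg15, chr4:156200860-156200911, minus strand: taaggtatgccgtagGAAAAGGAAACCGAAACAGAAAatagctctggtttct
Oas1a, chr5:120907515-120907560, minus strand: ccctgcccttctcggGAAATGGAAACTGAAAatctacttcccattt
Bst2, chr8:71537572-71537617, minus strand: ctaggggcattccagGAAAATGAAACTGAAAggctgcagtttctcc
Gbp2, chr3:142620589-142620628, plus strand: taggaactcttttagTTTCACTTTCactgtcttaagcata
Gbp3, chr3:142559984-142560029, plus strand: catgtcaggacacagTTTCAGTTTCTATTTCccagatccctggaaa

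The stretches of Ifit3 and Ifit3b were identical in 74 of 74 bases. Overlapping matches ran together into a single block in Isg15, which held 3, and in Oas1a, Bst2 and Gbp3. In Bst2 a GAS match overlapped the first ISRE match. For the members called lower in G1 below, Ifit2 and Rsad2, the 250 bases before the first RefSeq start are shown, followed by the stretch around the GAS match of Irf1. Here capitals mark matches to either motif, which are a GAS match in Ifit2 and Irf1 and an ISRE match in Rsad2.

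Ifit2, chr19:34550444-34550693, plus strand: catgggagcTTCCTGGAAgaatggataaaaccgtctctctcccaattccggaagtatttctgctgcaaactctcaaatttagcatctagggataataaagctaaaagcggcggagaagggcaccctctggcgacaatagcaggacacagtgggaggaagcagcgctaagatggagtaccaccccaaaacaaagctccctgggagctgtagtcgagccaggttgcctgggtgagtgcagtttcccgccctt
Rsad2, chr12:26456453-26456702, minus strand: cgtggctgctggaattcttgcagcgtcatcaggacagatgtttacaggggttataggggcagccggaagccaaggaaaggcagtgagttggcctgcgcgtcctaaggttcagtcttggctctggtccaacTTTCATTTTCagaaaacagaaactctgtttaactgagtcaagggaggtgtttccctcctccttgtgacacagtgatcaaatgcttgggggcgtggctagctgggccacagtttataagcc
Irf1, chr11:53769909-53769947, plus strand: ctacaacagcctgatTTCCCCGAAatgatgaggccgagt

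Ifit2 has a second RefSeq start, whose window held neither motif. Over the 14 members with an ISRE match, the median log2 difference of run 4 from runs 1 to 3 was 3.00 in G1 and 2.37 in G0. Over the 16 members with a window and no match it was 2.02 in G1 and 1.54 in G0. For the GAS it was 2.46 in G1 and 1.27 in G0 over the 7 members with a match. Over the 23 members with a window and no GAS match it was 2.39 in G1 and 1.99 in G0. These medians are descriptions with no test, and the plot of motif matches shows where each match lies.

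**Figure D1:**
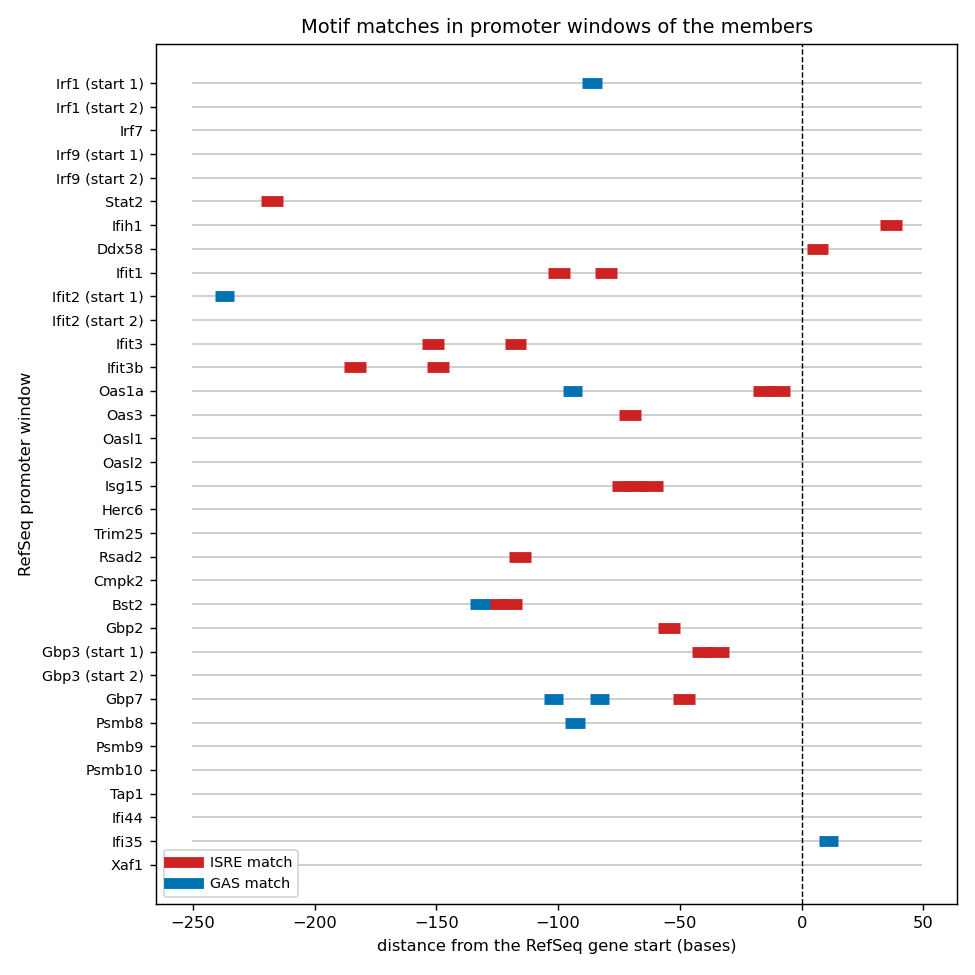
Motif matches in the RefSeq promoter windows of the 30 members that have them, with the distance from the gene start in bases on the horizontal axis and 1 line per window. Red bars are ISRE matches, found in 14 members, and blue bars are GAS matches, found in 7.

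The libraries held between 5868728 and 15014104 counts. Counts fell on 39094 genes in the G0 library of run 4 and on 20836 to 26614 genes in the others. Olfactory receptor genes, which basal cells are not known to use, had counts on 943 of 1107 genes in that library and on 26 to 410 in the others, and their summed level was 0.0146 CPM per kilobase in the G1 library of run 4 and 0.190 in its G0 library. Among tested members the lowest in that G0 library, Herc6, stood at 0.577 CPM per kilobase. Basal markers were high in every library, with Krt14 between 7627 and 9802 CPM in G1 and between 6650 and 8818 CPM in G0, and Trp63 and Acta2 were present throughout. The smallest chi-square per degree of freedom between libraries of a phase was 24.0, so no pair agreed within sampling noise.

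Nearly all the members were highest in run 4. Both of its libraries, G1 and G0, lay above the other 6 libraries for 38 of the 40 members, or 32 of the 34 members that passed the filter on low counts, against 5.26% of all 15192 tested genes. Both libraries of run 1 stood above the other 6 for 0 of the 34 tested members (7.11% of all tested genes), those of run 2 for 0 (5.1%) and those of run 3 for 1, Irf1 (16.7%). Both run 4 libraries lay below the other 6 for 0 of the 34 tested members, against 3.71% of all tested genes. The exceptions to the run 4 pattern were Irf1 and Psmb10. Summed over the members, the G1 libraries of runs 1 to 4 held 775, 761, 967 and 2170 CPM, against 848, 877, 1030 and 2040 CPM in the G0 libraries. The median log2 difference of run 4 from the mean of runs 1 to 3, with a prior count of 2, was 2.33 in G1 and 1.84 in G0, where all tested genes had medians of 0.02 and 0.05. The heat map of all members by library shows the 2 run 4 columns apart from the rest.

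**Figure D2:**
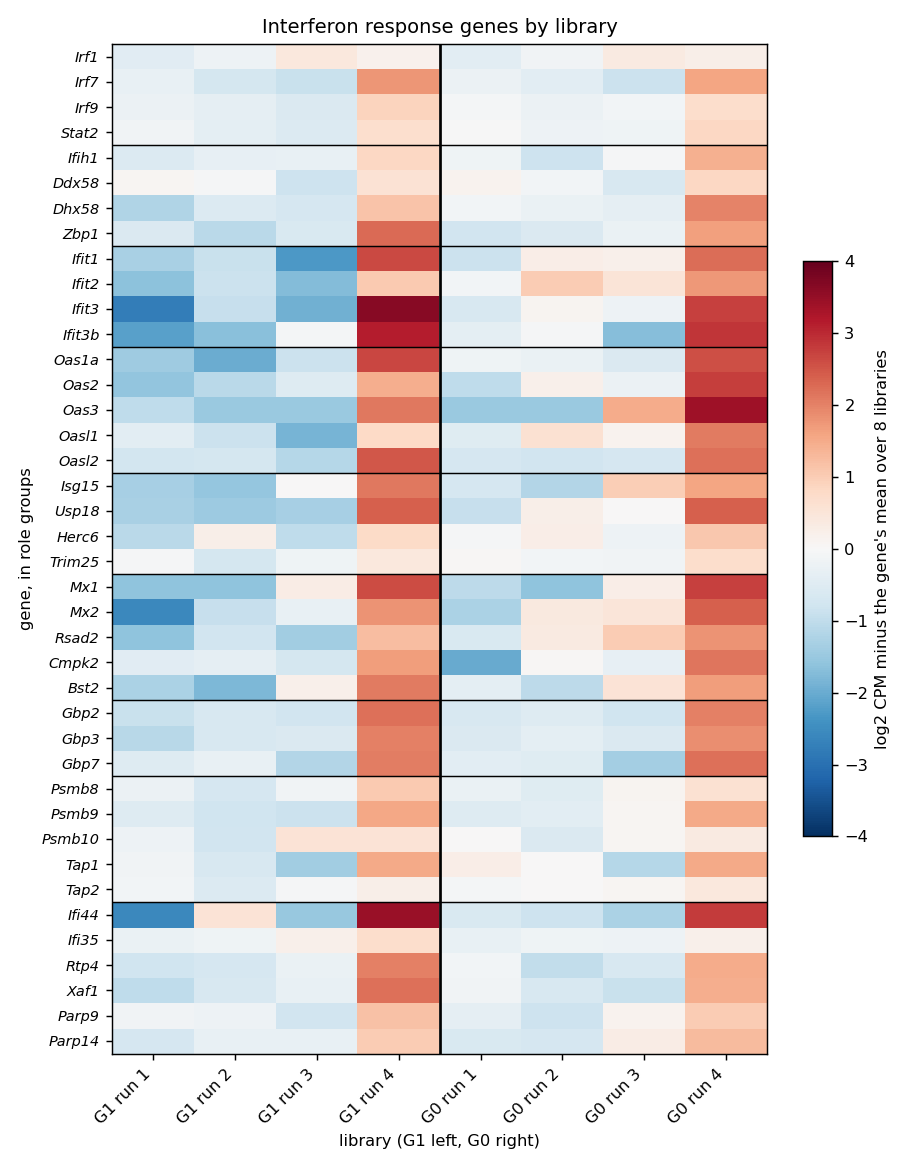
Log2 CPM of each of the 40 members in each library, minus the gene's mean over the 8 libraries, with G1 libraries on the left, G0 libraries on the right and black lines between role groups. Red is above and blue below the gene's mean, and both run 4 columns are highest for 38 of 40 members.

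A test of the 4 runs, with phase in the model, called 33 of the 34 tested members (edgeR quasi-likelihood F test, adjusted p under 0.05) and 35.6% of all tested genes. Herc6, a ubiquitin ligase, missed the threshold with an adjusted p of 0.0601. With run 4 left out, the test called 7 of 34 members, against 34.6% of all tested genes. This test was added after the values had been seen. The plot of run 4 against the other runs gives the size of the difference by phase.

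**Figure D3:**
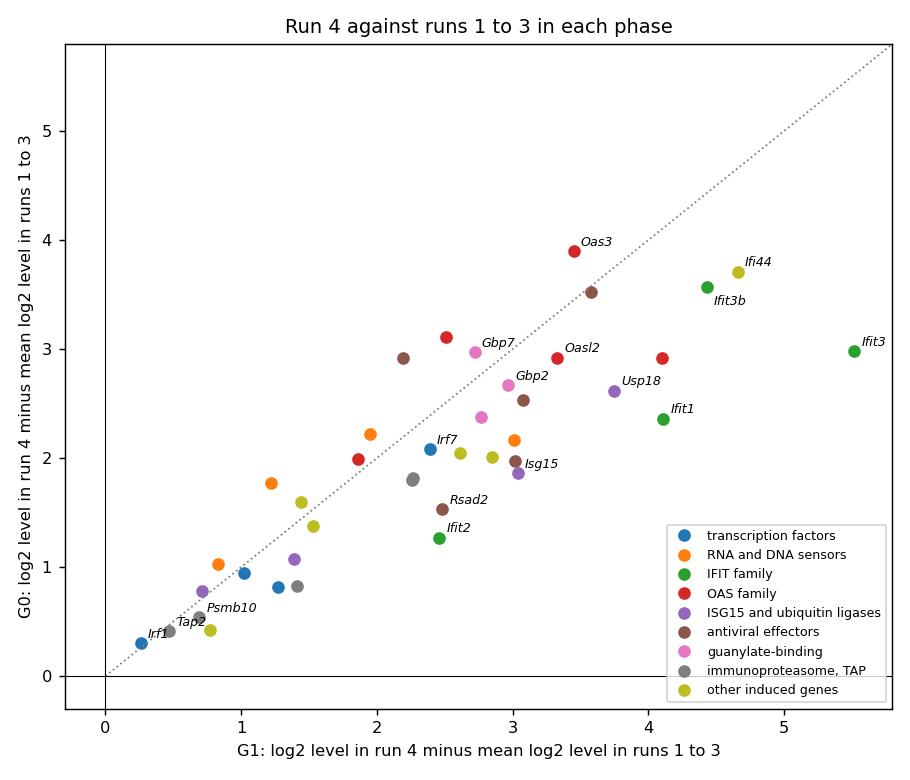
Log2 level in run 4 minus the mean log2 level in runs 1 to 3 (prior count 2), in G1 on the horizontal axis and in G0 on the vertical axis, with 1 point per member coloured by role and the dotted line marking equality. Irf1 lies near 0 in both phases, at folds of 1.20 in G1 and 1.23 in G0, and Ifit3 lies farthest to the right.

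Between the phases few members were called. The edgeR quasi-likelihood fit with only the phase as a term called 0 of the 34 tested members higher and 0 lower in G1 than in G0 at an adjusted p under 0.05, against 0% of all tested genes in either direction. None of the members had an unadjusted p under 0.05 in that fit, and DESeq2 and limma-voom also called 0 of them. For Ifit1 and Ifit3, however, DESeq2 gave no adjusted p with phase alone. The libraries of a run deviated together, so the run was also fitted as a block. The blocked fit called 2 members lower in G1, Ifit2 and Rsad2, against 0.764% of all tested genes, and 0 members higher, against 0.481%. Without run 4 it called 1 member lower, Ifit2, against 0.499% of the genes tested there, and 0 higher, against 0.138%. In the blocked fit with all 4 runs, an unadjusted p under 0.05 was reached by 6 members, all lower in G1, against 5.69% of all tested genes. The median log2 fold change of the tested members, G1 over G0, was -0.07 with phase alone and -0.21 with the block, where all tested genes had medians of 0.00 and 0.01. With phase alone this median was -1.11 without the G1 library of run 4 and 0.41 without its G0 library. It was also above 0, at 0.12, 0.06 and 0.09, without the G1 library of run 1, 2 or 3 in turn, so its direction depends on single libraries. With the block it was -0.25 without run 4 and -0.11 at its nearest to 0 with a run left out.

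Within runs the members leaned to the G0 side in runs 1 to 3. The median log2 ratio, G1 over G0, was -0.23 in run 1, -0.27 in run 2, -0.33 in run 3 and 0.06 in run 4. All tested genes had medians of 0.01, 0.02, 0.02 and -0.01 in those runs. The ratio was negative in 28, 26, 26 and 15 of the 34 tested members in runs 1 to 4. Of all 15192 tested genes it was negative in 7464, 7250, 7282 and 7680. It was negative in all 4 runs for 9 members, against 9.46% of all tested genes, and positive in all 4 for Ifi35 alone, against 11.3%. The 9 were Stat2, Dhx58, Ifit2, Usp18, Herc6, Trim25, Mx2, Rsad2 and Tap2. Olfactory receptor genes stood at 0.0146 CPM per kilobase in G1 of run 4 and 0.190 in its G0 library. The part of that background in the run 4 ratios was not tested. In bulk libraries a difference between phases in the number of cells that express a gene and in the RNA per cell cannot be told apart.

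**Figure D4:**
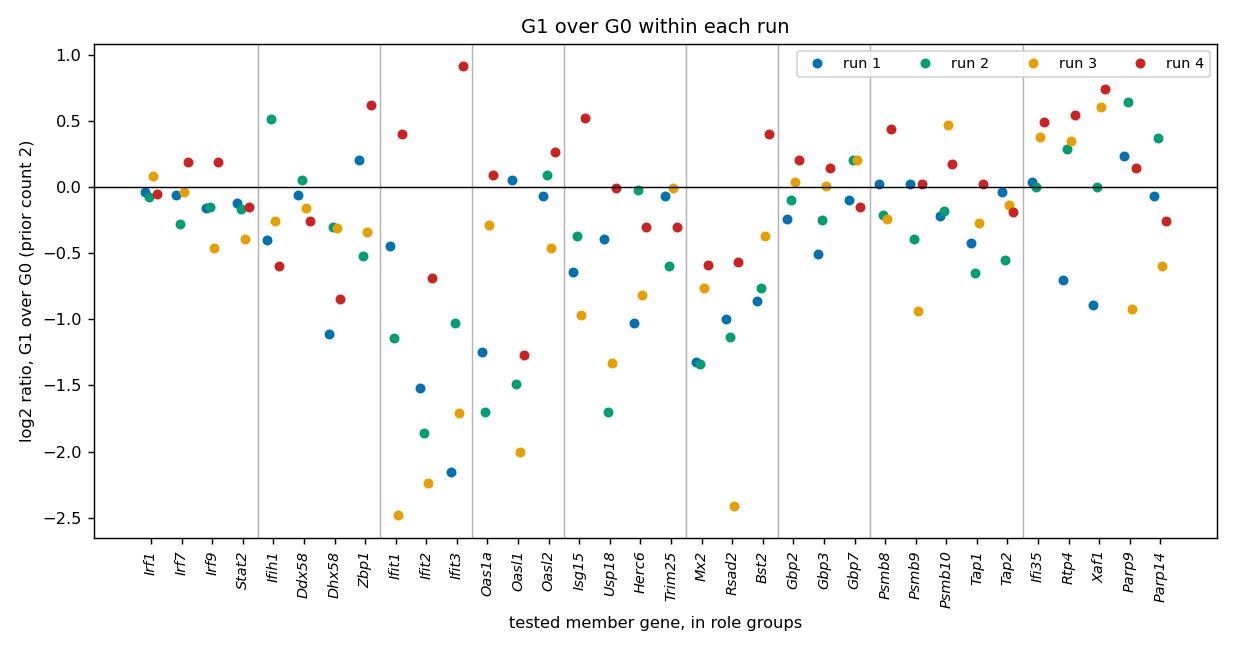
Log2 ratio of G1 over G0 within each run (prior count 2) for each of the 34 tested members, in role groups, with 1 coloured point per run. Ifit2 and Rsad2 are below 0 in every run, and run 4 is the highest of the 4 points for Ifit1, Ifit3, Isg15 and Bst2.

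Among the IFIT family, which binds viral RNA and hinders its translation, Ifit2 was the member that differed most clearly by phase. It had 1.20, 2.22, 1.12 and 8.81 CPM in the G1 libraries of runs 1 to 4, against 3.81, 8.59, 6.01 and 14.3 CPM in the G0 libraries. G1 was lower in every run, although the ranges of the phases overlap because the G1 library of run 4 is high. Ifit2 averaged 3.34 ± 3.68 CPM in G1 and 8.18 ± 4.52 CPM in G0 (SD, n = 4 each). Its log2 fold change, G1 over G0, was -1.61 ± 0.31 (SE) with the run as a block, with an adjusted p of 0.00469 from edgeR. With phase alone it was -1.33 ± 0.67 with an adjusted p of 1, and with the block but without run 4 it was -2.0 with an adjusted p of 0.0144 from edgeR.

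Ifit1 and Ifit3 went the same way as Ifit2 in runs 1 to 3 and the other way in run 4. Ifit1 was at 3.61, 4.91, 1.74 and 57.5 CPM in the G1 libraries of runs 1 to 4, against 4.99, 11, 10.5 and 43.6 CPM in the G0 libraries. Ifit3 was at 0.142, 0.997, 0.408 and 28.1 CPM in G1, against 1.27, 2.24, 1.77 and 14.8 CPM in G0. For both genes the G1 library was below the G0 library of its run in runs 1 to 3 and above it in run 4. The blocked log2 fold change was -0.78 ± 0.45 for Ifit1 and -0.71 ± 0.52 for Ifit3, with adjusted p-values of 0.580 and 0.644 from edgeR. Ifit3b, which did not pass the filter, ranged over 0 to 7.17 CPM in G1 and 0.0707 to 5.90 CPM in G0, and its highest library in each phase was run 4. Of the stretches of 100 bases in their transcripts, 31.7% of those in Ifit3 and 27.4% of those in Ifit3b occur in the other gene, so counts of this pair are uncertain.

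**Figure D5:**
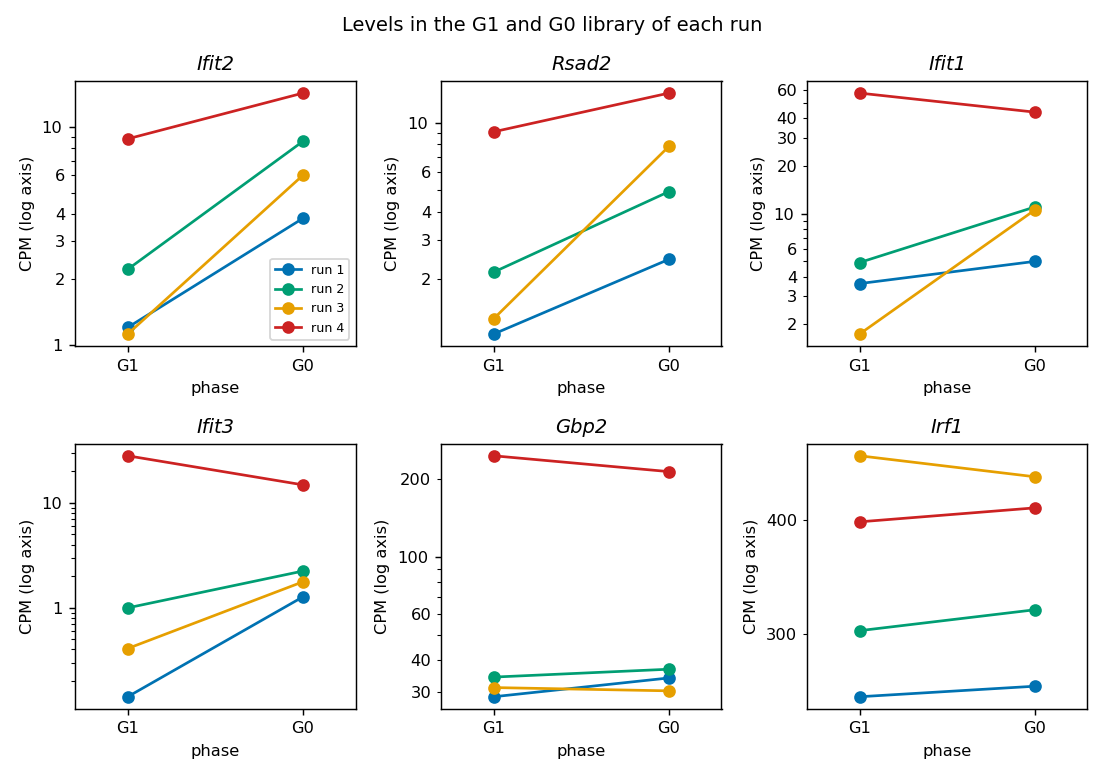
CPM on log axes in the G1 and G0 library of each run for 6 members, with a line joining the libraries of a run. The lines of Ifit2 and Rsad2 are lower in G1 in every run, run 4 lies above the others for all but Irf1, and run 3 is the highest for Irf1.

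Whether the phase difference of run 4 departed from that of runs 1 to 3 was tested with an interaction term, which leaves 2 residual degrees of freedom. Run 4 was singled out for this contrast with earlier results of these data known, so its p-values are not those of a blind choice. No member passed an adjusted p under 0.05 for a difference in either direction (edgeR). Of all tested genes, 0.0132% were called higher in run 4 and 0% lower. An unadjusted p under 0.05 was reached by 4 members, all with a higher G1 to G0 ratio in run 4, against 2.37% of all tested genes, and by 0 members with a lower ratio, against 4.49%. Their differences on the log2 scale were 2.77 for Ifit3, 1.73 for Ifit1, 1.23 for Isg15 and 1.05 for Bst2, with adjusted p-values between 0.332 and 0.601 from edgeR. DESeq2 called 0 members, but it gave no adjusted p for any of these 4, so it could not have called them. Leaving out run 1, run 2 or run 3 each brought Ifit1 under the threshold, with adjusted p-values of 0.0257, 0.00871 and 0.0490 from edgeR. Those fits have fewer residual degrees of freedom than the fit with all runs. In them 0.0644%, 0.305% and 0.556% of all tested genes were called higher in run 4. In both directions together 10, 113 and 247 genes were called, against 2 with all runs, so the calls of all genes grew as well. Ifit3 passed without run 2 (adjusted p of 0.00871) and without run 3 (adjusted p of 0.00932, edgeR). The difference was positive in 26 of the 34 tested members, with a median of 0.40 on the log2 scale. It was positive in 7678 of all 15192 tested genes, with a median of 0.01.

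Among the antiviral effectors, Rsad2, which encodes viperin, an enzyme that makes a chain-terminating nucleotide, was the other member called lower in G1. It stood at 1.13, 2.15, 1.33 and 9.11 CPM in the G1 libraries of runs 1 to 4, against 2.45, 4.92, 7.84 and 13.6 CPM in the G0 libraries. G1 was below G0 in each run, and the widest gap was in run 3. Rsad2 averaged 3.43 ± 3.81 CPM in G1 and 7.20 ± 4.79 CPM in G0 (SD, n = 4 each). Its blocked log2 fold change was -1.30 ± 0.33 (SE), with an adjusted p of 0.0451 from edgeR, against -1.10 with an adjusted p of 1 with phase alone. The call was lost without run 2, run 3 or run 4, where the adjusted p was 0.109, 0.179 and 0.120 (edgeR), and with limma-voom, where it was 0.0869.

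Bst2, or tetherin, holds budding virus at the cell surface. It had 4.68, 3.14, 13.1 and 48.5 CPM in the G1 libraries of runs 1 to 4, against 8.62, 5.46, 16.9 and 36.8 CPM in the G0 libraries. G1 was the lower library in runs 1 to 3 and the higher in run 4. Mx2, annotated as a polymorphic pseudogene in mouse, was lower in G1 in every run, with a blocked log2 fold change of -1.08 ± 0.43 and an adjusted p of 0.272 from edgeR. It ranged over 0.142 to 6.72 CPM in G1 and 0.635 to 10.2 CPM in G0. Mx1, a GTPase that traps viral nucleoproteins, and Cmpk2, a mitochondrial nucleotide kinase beside Rsad2 on chromosome 12, did not pass the filter, and run 4 held their highest library in both phases.

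The transcription factors ran from the most abundant member of all to genes that followed run 4. Irf1, a transcription factor that is itself induced early by interferon, was the member with the highest level per length, at a mean of 90.2 CPM per kilobase over the 8 libraries. It had 256, 303, 471 and 398 CPM in the G1 libraries of runs 1 to 4, against 263, 319, 446 and 413 CPM in the G0 libraries. Its run order was the same in both phases, with run 3 highest and run 1 lowest. The immediate early and dissociation response genes, a list of 18, were also highest in run 3, at a sum of 14100 CPM in G1 and 15900 CPM in G0 there, against 6120 to 7070 CPM and 7450 to 8450 CPM in the other runs. Their part in the level of Irf1 was not tested.

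Irf9, the DNA-binding partner of STAT2, had 51.0, 46.6, 40.5 and 111 CPM in the G1 libraries of runs 1 to 4, against 57.1, 51.6, 55.8 and 97.0 CPM in the G0 libraries. Run 4 stood above the rest in both phases, and the phases overlapped. Irf7, which drives the later wave of type I interferon, was 5.26-fold higher in run 4 than the geometric mean of runs 1 to 3 in G1 and 4.23-fold higher in G0. Stat2 was 2.03-fold higher in G1 and 1.93-fold higher in G0 on the same measure. Its G1 library was below its G0 library in all 4 runs, at log2 ratios between -0.39 and -0.12.

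The sensors of foreign nucleic acids were all highest in run 4. Ddx58, which encodes the RNA sensor RIG-I, had 21.8, 20.0, 11.6 and 30.6 CPM in the G1 libraries of runs 1 to 4, against 22.7, 19.3, 13.1 and 36.8 CPM in the G0 libraries. The phases overlapped and run 3 was lowest in both. Zbp1, a sensor of Z-form nucleic acids, had 3.47, 2.38, 3.37 and 25.7 CPM in G1, against 2.99, 3.49, 4.31 and 16.6 CPM in G0. Its run 4 libraries were the only ones above 5 CPM. Ifih1, the RNA sensor MDA5, and Dhx58, its regulator LGP2, were also higher in run 4, Ifih1 by 2.33-fold in G1 and 3.42-fold in G0 and Dhx58 by 3.85-fold in G1 and 4.65-fold in G0.

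The OAS family makes 2-5A, which activates RNase L, and Oasl1 and Oasl2 are related proteins. Oasl2 had 9.14, 9.43, 6.84 and 85.9 CPM in the G1 libraries of runs 1 to 4, against 9.62, 8.86, 9.47 and 71.8 CPM in the G0 libraries. Oas1a had 0.425, 0.230, 0.715 and 10.3 CPM in G1, against 1.27, 1.16, 0.919 and 9.65 CPM in G0. Runs 1 to 3 lay close together for Oasl2 in both phases, and for Oas1a the G1 libraries of runs 1 to 3 were all below the G0 libraries of those runs. Of the stretches of 100 bases in Oas1a, 40.9% occur in Oas1g, so its counts are uncertain. Oasl1 had a blocked log2 fold change of -1.26 ± 0.45, with an adjusted p of 0.219 from edgeR. Oas3 and Oas2 were the members with the lowest levels per length, at means of 0.156 and 0.169 CPM per kilobase, and did not pass the filter.

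ISG15 is a ubiquitin-like protein that is joined to other proteins, Usp18 removes it and restrains the type I receptor, and Herc6 and Trim25 are ubiquitin ligases of the pathway, Herc6 being the ISG15 ligase in mouse. Isg15 had 4.46, 3.83, 11.6 and 49.5 CPM in the G1 libraries of runs 1 to 4, against 7.08, 5.01, 23.0 and 34.5 CPM in the G0 libraries. Usp18 had 1.13, 0.997, 1.12 and 16.9 CPM in G1, against 1.54, 3.67, 3.11 and 17.0 CPM in G0. Both genes were lower in G1 in runs 1 to 3, while in run 4 Isg15 was higher in G1 and Usp18 was nearly level. The blocked log2 fold change of Usp18 was -0.85 ± 0.34, with an adjusted p of 0.275 from edgeR. Trim25 was at 22.3, 14.0, 20.4 and 30.5 CPM in G1, against 23.4, 21.3, 20.6 and 37.5 CPM in G0, a narrow range in which run 4 was still highest.

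The guanylate-binding proteins, GTPases that attack the membranes of intracellular microbes and answer type II interferon in particular, showed a wide gap between runs and almost none between phases. Gbp2 had 28.7, 34.2, 31.1 and 246 CPM in the G1 libraries of runs 1 to 4, against 33.9, 36.7, 30.2 and 214 CPM in the G0 libraries. Gbp3 had 6.80, 9.43, 9.90 and 59.8 CPM in G1, against 9.80, 11.3, 9.82 and 54.3 CPM in G0. Runs 1 to 3 overlapped between phases for both genes. Gbp2 was 7.84-fold higher in run 4 in G1 and 6.36-fold higher in G0, and Gbp7 was 6.58-fold higher in G1 and 7.85-fold higher in G0. Gbp2 was second to Irf1 in level per length, at a mean of 32.6 CPM per kilobase, with 98.0 in G1 and 85.1 in G0 of run 4.

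The immunoproteasome subunits and the TAP transporter, which cut peptides and carry them to MHC class I, differed less between runs than most other role groups, with median log2 differences of run 4 from runs 1 to 3 of 1.41 in G1 and 0.83 in G0. Psmb8 had 38.6, 28.3, 41.7 and 95.3 CPM in the G1 libraries of runs 1 to 4, against 38.0, 32.8, 49.2 and 70.4 CPM in the G0 libraries. Tap2 had 88.1, 65.7, 92.4 and 112 CPM in G1, against 90.8, 96.2, 102 and 128 CPM in G0. G1 was the lower library of Tap2 in each run, and its adjusted p in the blocked fit was 0.455 (edgeR). Tap1 was 4.79-fold higher in run 4 in G1 and 3.48-fold higher in G0, and its blocked log2 fold change between phases was -0.33 ± 0.13, with an adjusted p of 0.278 from edgeR. Psmb10 was 1.61-fold higher in run 4 in G1 and 1.45-fold higher in G0, and its G1 libraries of runs 3 and 4 were nearly level at 31.4 and 31.7 CPM. Psmb9 and Tap1 lie on opposite strands and share 212 exon bases, Parp9 shares 458 with Dtx3l, Psmb8 shares 498 with the antisense gene Gm20496, and whether the counting used strand is unstated in the sources used here.

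Of the remaining members, Ifi35, which binds other interferon-induced factors, was the single member higher in G1 in all 4 runs. It had 36.6, 38.6, 49.7 and 70.5 CPM in the G1 libraries of runs 1 to 4, against 35.6, 38.5, 38.2 and 50.2 CPM in the G0 libraries. The gap was near 0 in runs 1 and 2, and the adjusted p in the blocked fit was 0.539 (edgeR). Rtp4, a chaperone of membrane receptors, had 5.53, 6.06, 8.07 and 40.5 CPM in G1, against 9.07, 4.92, 6.29 and 27.7 CPM in G0. Xaf1, a pro-apoptotic protein, was 7.20-fold higher in run 4 in G1 and 4.03-fold higher in G0. Parp9 and Parp14, which belong to the ADP-ribosyltransferase family, were 2.60-fold to 3.03-fold higher in run 4 over both phases. Ifi44 did not pass the filter and ranged over 0 to 12.2 CPM in G1 and 0.283 to 7.68 CPM in G0, with run 4 highest in each. Of the stretches of 100 bases, 10.3% in Herc6 and 9.28% in Rtp4 also occur in other genes, and 9.59% in Gbp7 occur in the pseudogene Gm43802, so the counts of these members are uncertain to that extent.

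The rest of the pathway was described from lists of its other parts. Of 21 interferon ligand genes, 0 passed the filter. Their summed level was at most 0.204 CPM in any G1 library and was 0.0907, 0.0895, 1.84 and 6.43 CPM in the G0 libraries of runs 1 to 4, so the G0 library of run 4 was highest and the G1 library of run 4 was at 0. Per length the ligands stood at 0.114 CPM per kilobase in G0 of run 3 and 0.399 in G0 of run 4, where the olfactory receptor genes stood at 0.0454 and 0.190 and were likewise highest of the G0 libraries. The part of that background in the ligand levels was not tested. Of the 11 receptors, kinases and STATs tested, 0 were called in either direction in the blocked fit. The kinase gene Tyk2 had the smallest p of that list, with a log2 fold change of -0.58 ± 0.19 and an adjusted p of 0.151 from edgeR. No gene was called among the 13 sensing adaptors, kinases and IRFs tested or the 9 inhibitors tested. Both run 4 libraries were highest for 4 of the 13, which were Tlr3, Ticam1, Myd88 and Irf8. The same held for 2 of the 9 inhibitors, Ptpn6 and Isg20, and for 5.26% of all tested genes. These 6 were named after their values were seen.

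Among 66 further interferon-induced genes that were tested, the blocked fit called 2 lower in G1 and 0 higher, where 0.764% of all tested genes were lower and 0.481% higher. Slfn5, a member of the Schlafen family, had a log2 fold change of -1.69 ± 0.32 with an adjusted p of 0.00414 (edgeR), and 0.0763 without run 4. Cxcl9, a chemokine that draws T cells, had a log2 fold change of -1.82 ± 0.40 with an adjusted p of 0.0487 (edgeR), and 0.0398 without run 4. Both run 4 libraries stood above the other 6 for 38 of these 66 genes, against 5.26% of all tested genes. The test of the 4 runs called 53 of the 66, against 35.6%.

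Some marker lists of other cell types differed by phase, others by run. Endothelial markers were lower in G1, with 12 of 14 called in the blocked fit, none at 0 over the libraries, and sums of 46.1 to 170 CPM in G1 and 195 to 423 CPM in G0. Fibroblast markers had 4 of 10 called lower and 0 higher (3 lower without run 4), with sums of 289 to 692 CPM in G1 and 259 to 977 CPM in G0. The immediate early list had 2 of 18 called lower and 0 higher, with a negative fold change in all 18. The part of these 3 lists in the lower Ifit2 and Rsad2 of G1 was not tested. The endothelial sums of run 4, 152 CPM in G1 and 399 CPM in G0, lay within the range of runs 1 to 3. So did the fibroblast sums of run 4, 509 CPM in G1 and 355 CPM in G0. Luminal markers had 0 of 9 tested called in the blocked fit. They summed to 1210 CPM in G1 and 1040 CPM in G0 of run 4. In the other runs they summed to 1340 to 1930 CPM in G1 and 1130 to 2200 CPM in G0. Myeloid markers summed to 87.2 CPM in G1 and 116 CPM in G0 of run 4, against 40.3 to 47.7 CPM in G1 and 39.9 to 111 CPM in G0 of the other runs. Both run 4 libraries were highest for 8 of the 14 myeloid markers. Of the 6 that passed the filter it was 3, against 5.26% of all tested genes. Mrc1 was at 0 in the G1 libraries of runs 1 to 3 and the G0 libraries of runs 1 and 2.

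Lymphocyte markers summed to 11.7 CPM in G1 of run 4, against 0.537 to 2.65 CPM in G1 of the other runs. Their G0 sums were 0, 0.358, 14.3 and 32.0 CPM in runs 1 to 4. In the same G0 libraries the olfactory receptor genes summed to 33.1, 10.8, 160 and 672 CPM. Both run 4 libraries were highest for 4 of the 14 lymphocyte markers, but only 1 of the 14 passed the filter, and it was not among them. The part of that background in the lymphocyte sums was not tested. Markers of plasmacytoid dendritic cells, the main producers of type I interferon, summed to 151 CPM in G1 and 168 CPM in G0 of run 4, against 91.3 to 96.1 CPM in G1 and 113 to 129 CPM in G0. That list of 8 includes the member Bst2, and 5 of its genes had both run 4 libraries highest. Only 3 of the 8 passed the filter. Of these, Bst2 and Irf8 had both run 4 libraries highest, against 5.26% of all tested genes. Without Bst2 the list summed to 103 CPM in G1 and 132 CPM in G0 of run 4, against 78.2 to 93.0 CPM in G1 and 108 to 112 CPM in G0 of the other runs. Within these sums Irf8, which is also in the list of adaptors, stood at 20.9 CPM in G1 and 28.05 CPM in G0 of run 4. Basal markers summed to 35800 CPM in G1 and 26800 CPM in G0 of run 4, against 32000 to 33500 CPM in G1 and 23100 to 30300 CPM in G0. In the blocked fit 2 of the 10 basal markers were called higher in G1, against 0.481% of all tested genes, and 0 lower. They were Acta2 and Cnn1, at log2 fold changes of 0.63 and 0.55, with adjusted p-values of 0.000642 and 0.00324 from edgeR. Without run 4 the fit also called 2 of the list higher. The part of the other cell types in the run 4 levels of the members was not tested.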

How the data were processed

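Poly(A)-selected RNA of sorted cells was made into stranded libraries and sequenced in 100-base pairs, per the labels' protocols. The submitters' processing notes name Trimmomatic 0.35, STAR 2.5.2a and the build mm10. The authors deposited raw counts per Ensembl gene for all 8 libraries in a single table. How reads were counted, whether by strand and against which annotation is unstated in the sources used here. Symbols, lengths and positions came from GENCODE M21, which named 54808 of 54837 rows, and promoters from RefSeq.

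Counts were fitted with edgeR 4.0.16 (R 4.3.3; quasi-likelihood, TMM scaling, filterByExpr, Benjamini-Hochberg adjustment over all 15192 tested genes, threshold 0.05), with phase alone as the main model and the run as a block as an alternative. The biological coefficient of variation was 34.9% with phase alone and 16.9% with the block. The run numbers come from the sample titles. Deviations from the phase mean correlated within each run (0.668, 0.470, 0.638 and 0.437 for runs 1 to 4), so the numbers were taken to pair the libraries. Alternatives were DESeq2 1.42.0, limma-voom (limma 3.58.1), relative log expression (RLE) scaling, no filter, at least 10 counts in all 8 libraries, and leaving out libraries or runs. The test between runs was added after the data were seen. The scripts were tested on data drawn with known changes.

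The members and all gene lists were chosen, and run 4 was singled out for the interaction test, with earlier results of these data known. Values in every library are given for members called in either fit, the 2 with the highest level per length in each role group, and the 6 with the largest difference in G1 to G0 ratio between run 4 and the other runs. From the pathway lists, genes are named by the smallest p in the blocked fit. Read sharing was checked on stretches of 100 bases.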

Additional observations from a re-analysis of the deposited data

Results flagged for a closer look

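In groups of 4 libraries, a highest or lowest value was singled out where its gap to the next, divided by the range of the group, exceeded Dixon's 95% critical value, which chance passes in about 1 in 20 groups. Of 40 groups (20 members in each phase) 22 passed, and in all 22 it was the highest library, run 4, that stood apart. The 20 members include 6 chosen for the difference in G1 to G0 ratio between run 4 and the other runs, so this count is a description and is not read against that chance rate. In both phases this held for Usp18 at 16.9 CPM in G1 and 17.0 CPM in G0, Oasl2 at 85.9 CPM in G1 and 71.8 CPM in G0, Gbp2 at 246 CPM in G1 and 214 CPM in G0, Gbp3 at 59.8 CPM in G1 and 54.3 CPM in G0, Ifit3 at 28.1 CPM in G1 and 14.8 CPM in G0, Ifit1 at 57.5 CPM in G1 and 43.6 CPM in G0, Oas1a at 10.3 CPM in G1 and 9.65 CPM in G0, Zbp1 at 25.7 CPM in G1 and 16.6 CPM in G0, and Irf9 at 111 CPM in G1 and 97.0 CPM in G0. In G1 alone it held for Ifit2 at 8.81 CPM, Rsad2 at 9.11 CPM and Rtp4 at 40.5 CPM, and in G0 alone for Trim25 at 37.5 CPM. Whether the phases differ in this was not tested.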

How the results depend on the processing

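With phase alone, edgeR called 0 genes higher and 0 lower in G1 than in G0, without a filter 14 and 73, and with DESeq2 10 and 24; leaving out single libraries gave 0 and 0. An unadjusted p under 0.05 was reached by 156 genes higher and 269 lower. With the run as a block the counts were 73 higher and 116 lower, 97 and 136 with DESeq2, 63 and 134 with limma-voom, 74 and 123 with RLE, 53 and 92 with at least 10 counts in all libraries, and 99, 63, 73 and 21 higher and 175, 90, 144 and 76 lower without runs 1 to 4 in turn. Members called lower with the block were 2, also with DESeq2, RLE and the stricter filter, 1 with limma-voom, and 1 to 2 when runs were left out. The block changed no other call of a member. The median log2 fold change of the members, -0.07, ranged over -1.11 to 0.41 when single libraries were left out and -0.25 to -0.11 when runs were left out of the blocked fit. Directions turned for Ifit1 (0.03 without a filter; -2.32 to 0.91 when libraries were left out), Usp18 (-2.49 to 0.81), Mx2 (-2.27 to 0.22) and Tap1 (-1.10 to 0.43). Ifit3, at 0.58 with phase alone, was at -1.45 with limma-voom, -0.71 with the block, -1.26 with the block and DESeq2 and -0.71 with the block and RLE. With the block and limma-voom Ifit3 was above 0, at 0.14. It ranged over -3.21 to 2.03 when libraries were left out, and was at -0.31, -0.50, -0.28 and -1.94 in the block without runs 1 to 4. The difference of run 4 from the other runs was called for 2 genes, 0 with the stricter filter, 11 with DESeq2, and 10 to 247 with a run left out, where 1 to 2 were members. The test between runs called 33 members, and 7 to 36 when libraries or run 4 were left out. The cause was not tested for any of these. Members under about 1 CPM rest on few counts, and 6 were too low to test.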
